A study of Mus musculus with 21 samples.

Results

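The transcripts of the wound bed 6 days after wounding were compared with those of intact skin in mice. The 2 groups compared held 6 of the 21 arrays of the series, chosen by their labels: 3 of wound bed at day 6 and 3 of intact skin. All 1687 probes that were not blank were considered. The wound bed samples came from wounds of 1.5 by 1.5 cm on the back, from which skin and the panniculus carnosus, the thin muscle below mouse skin, had been removed and which were covered with a polyurethane dressing. The intact samples were shaved, excised skin that had not been wounded, labelled day 0. All mice were females of the strain C57Bl/KS-db/+ aged 9 to 13 weeks, so both groups carried 1 mutant allele (db) of the leptin receptor gene, and no group without it was present. The labels state 3 animals per time point and do not say whether a bed sample and an intact sample share an animal. Although the bed samples' labels speak of operation-day skin as well, their titles name them as wound bed of day 6, and they were used as such. The other 15 arrays held wound bed at days 2 and 15 and wound edge, a strip of 2 mm around the wound, at days 2, 6 and 15, in groups of 3. They also took part in the normalization, the choice of tested probes and the estimate of spread behind the p-values.

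By the end of the first week, a full-thickness skin wound is filled by granulation tissue, in which fibroblasts, macrophages and new vessels grow into a provisional matrix. Intact skin holds instead a layered epidermis, hair follicles and a dense collagenous dermis. Heparan sulfate, named in the title of the series, is a sugar chain with sulfate groups, carried by proteoglycans of the cell surface and the matrix. It binds growth factors and chemokines. Its chains are built and sulfated in the Golgi apparatus, and outside the cell they are cut by heparanase.

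The array names nearly all of its probes by a catalogue identifier, and 3 of the 1687 could be given a gene symbol. These were Hpse, which encodes heparanase, Fbln1, which encodes fibulin-1, a glycoprotein of the extracellular matrix, and Ndst3, which encodes an enzyme that removes acetyl groups from heparan sulfate chains and sulfates them. Of the genes listed for heparan sulfate metabolism, 1 of 23 genes of chain synthesis (Ndst3) and 1 of 11 genes of degradation and editing (Hpse) had a probe with a symbol, and of 26 matrix glycoproteins 1 had one (Fbln1). None of the markers listed for keratinocytes, hair follicles, skeletal muscle, adipocytes, fibroblasts, macrophages, neutrophils, lymphocytes and mast cells, or endothelium could be matched to a probe, so the labelled tissues were not checked against marker genes. The results below are therefore levels and counts of probes.

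The signal was low on most arrays. The median spot was 1.68, 1.47 and 2.21 times as bright as its local background on the bed arrays (replicates 1 to 3), and 1.93, 1.27 and 1.66 times on the intact arrays. Of the 1687 probes, 775, 547 and 487 were brighter than 95% of the array's own blank spots in the bed, and 851, 541 and 696 in intact skin. Such a probe is called above the blanks here. Tests covered the 974 probes above the blanks on 3 or more of the 21 arrays, and 358 of these were above the blanks on all 6 arrays. Of the 713 probes that were not tested, 676 were above the blanks on none of the 6. With 3 arrays in a group, their number limits the precision throughout. The p-values rest on 1 spread per probe, pooled over the 21 arrays, and not on the spread of the 6 compared arrays alone. The day 6 bed had the largest median SD of the 7 groups, 0.60 against 0.38 in intact skin. The pooled spread can thus understate that of the bed, and the p-values and SEs can be too small. These p-values reflect nothing beyond these samples.

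Bed replicate 2 stood apart. On this array the signal changed along the glass: over its 12 rows of print blocks, the median deviation from the mean of the 7 groups ran from 1.36 in the first row to -0.76 in the sixth on the log2 scale, a range of 2.12. Bed day 15 replicate 3 had a range of 2.40, and the other 19 arrays had ranges along the rows of up to 0.87. The 2 arrays with a row range above 2 are called uneven below. Over the 4 columns of print blocks the range was 0.04, 0.81 and 0.91 on bed replicates 1 to 3. It was 0.17, 0.13 and 0.73 on intact replicates 1 to 3. The count of differing probes and the tested probes described by name are therefore also given without bed replicate 2, and after the row and column medians of the blocks had been removed from each array, a correction chosen after the data were seen. The images were scanned on 3 days, with intact replicate 1 on scan day 1, intact replicates 2 and 3 and bed replicate 1 on scan day 2, and bed replicates 2 and 3 on scan day 3. Bed and intact arrays thus share only scan day 2.

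**Figure D1:**
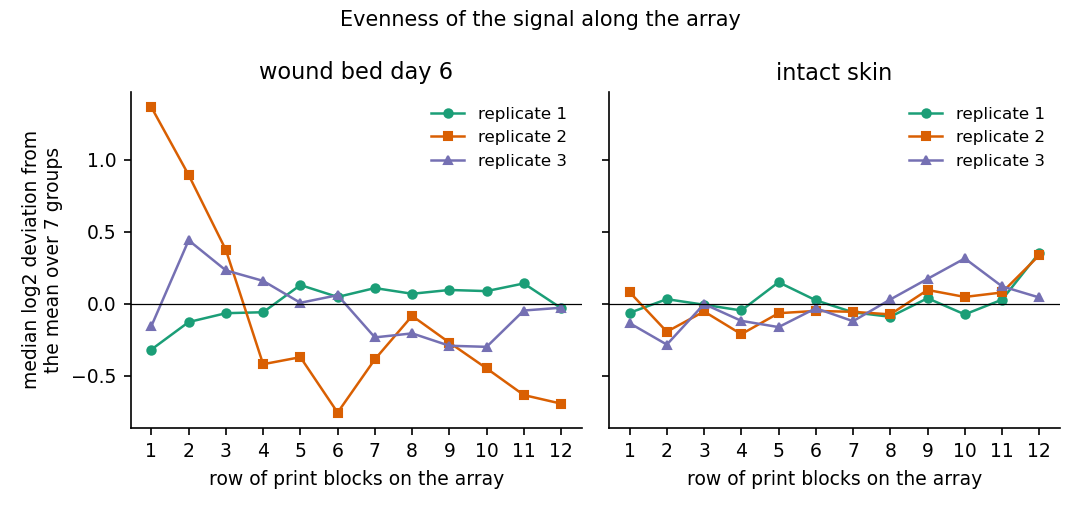
Median log2 deviation of the tested probes from the mean of the 7 group means (vertical axis) in each of the 12 rows of print blocks (horizontal axis), for the 3 arrays of wound bed day 6 (left) and of intact skin (right). Bed replicate 2 runs from 1.36 in row 1 to -0.76 in row 6, and the ranges of the other 5 arrays lie between 0.44 and 0.74.

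The bed at day 6 differed from intact skin at 188 of the 974 tested probes (19.3%), 91 of them higher in the bed (9.34%) and 97 lower (9.96%), by limma's moderated test with Benjamini-Hochberg adjusted p below 0.05. At an unadjusted p below 0.05 the count was 334 (34.3%). A log2 difference of 1 is a 2-fold change in signal. The rises had a median log2 difference of 1.52, with values between 0.93 and 5.38, and the falls had a median size of 1.58, between 0.89 and 4.77. Over all tested probes the median size was 0.65 and the median SE 0.41. Of the 188, 7 differed by less than 1 on the log2 scale, 129 by 1 to 2, and 52 by 2 or more (23 higher, 29 lower). Called and uncalled probes met at an adjusted p of 0.0492 and 0.0507. In tissue samples such as these, fewer cells of a type and less RNA per cell cannot be told apart.

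**Figure D2:**
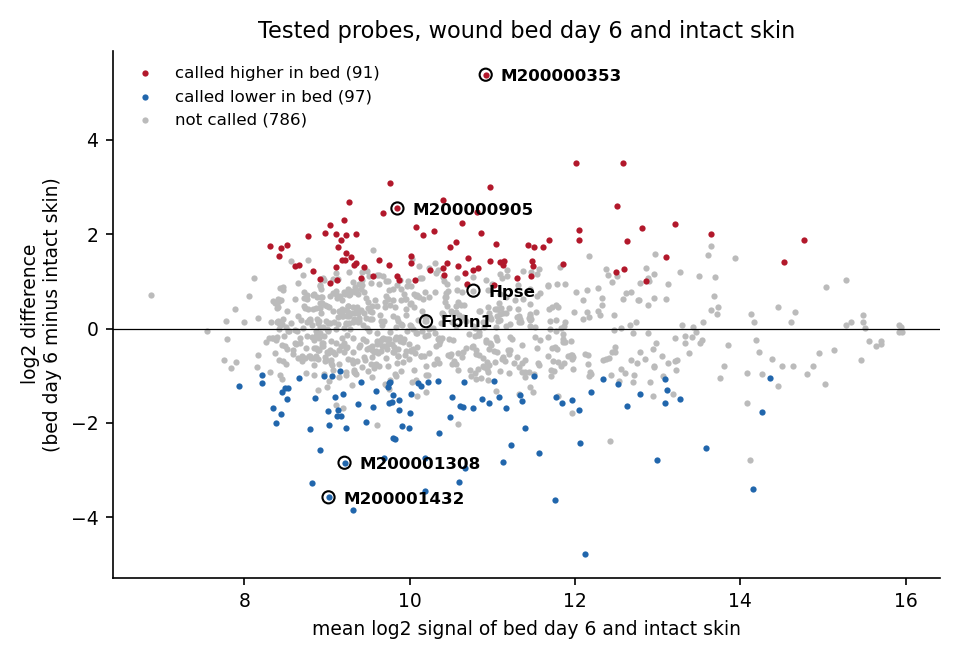
Log2 difference between wound bed day 6 and intact skin (vertical axis, bed minus intact) against the mean log2 signal of the 2 groups (horizontal axis) for the 974 tested probes. The 91 probes called higher in the bed and the 97 called lower lie at all levels of signal, and the circles mark the 6 probes described by name.

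The count depended on single arrays, on the scan day and on the groups in the fit. No called probe changed sign in any setting tried. The settings reuse the arrays on which the probes were called, which favours an unchanged sign, so nothing is read from it. Without bed replicate 2, 131 probes were called (74 higher, 57 lower), 107 of them among the 188. After the correction for block rows and columns 271 were called (27.8%; 122 higher, 149 lower), and these held 177 of the 188. Without intact replicate 1 the count was 116, and without intact replicate 3 it was 98. In all 6 fits that left out 1 of the 6 arrays, 75 of the 188 were called (39 higher, 36 lower). With only the 6 compared arrays in the fit, 85 probes were called (39 higher, 46 lower), 83 of them among the 188.

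With scan day as a block 77 probes were called (7.91%; 40 higher, 37 lower), 71 of them among the 188. All 188 kept their sign in that fit, with a median size of 1.42, while the SE had a median of 0.48. On scan day 2 alone, with 1 bed and 2 intact arrays, all 188 went the same way with a median size of 1.39, although these arrays had taken part in the calls. With the block correction and the scan day together, 186 probes were called (94 higher, 92 lower), 135 of them among the 188. The balance of rises and falls depended on the scale: scaling each array to its 75th percentile gave 89 higher and 55 lower, and scaling it to its median gave 47 and 98. Relative to the quantile scale, where the median log2 difference of all tested probes was -0.02, these scales put it at 0.09 and -0.29.

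**Figure D3:**
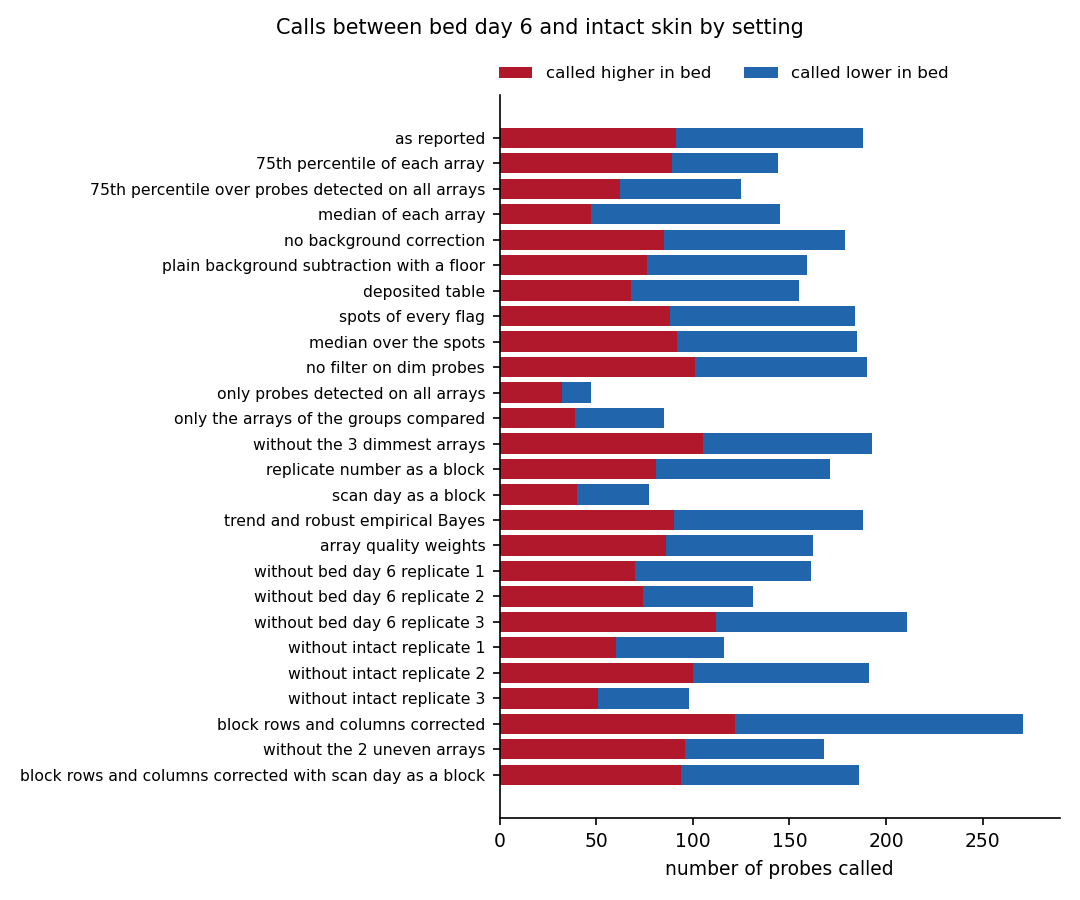
Number of probes called between wound bed day 6 and intact skin (horizontal axis) in each setting (rows), split into higher in bed (left part of a bar) and lower in bed (right part). The counts run from 47, with only the 323 probes above the blanks on all 21 arrays, to 271, after the correction for block rows and columns.

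The largest rise belonged to the probe with the catalogue identifier M200000353. Its log2 signals were 14.55, 12.89 and 13.39 in the bed, against 8.66, 8.0 and 8.03 in intact skin. In scanner units the median of its 8 spots was 20691, 5648 and 15173 in the bed and 449, 401 and 636 in intact skin, where it was not above the blanks on any array. All 3 bed arrays lay far above all 3 intact arrays. The log2 difference was 5.38 (SE 0.48, limma adjusted p = 5.29e-07). Since intact skin gives only an upper limit, the rise is at least 18.8-fold, with the bed mean set against the dimmest signal above the blanks on each intact array or the probe's own signal, whichever was higher.

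M200000905 also rose, with the 3 bed arrays close together. It had log2 signals of 11.05, 11.45 and 10.88 in the bed, against 8.50, 9.11 and 8.13 in intact skin. The bed mean was 11.12 ± 0.30 and the intact mean 8.58 ± 0.50 (SD, n = 3 each). It was above the blanks on every bed array and on no intact array. The rise was at least 3.36-fold (log2 difference 2.54, SE 0.33, limma adjusted p = 3.02e-05).

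Among the falls, M200001432 had the largest test statistic. Its log2 signals were 7.35, 6.91 and 7.44 in the bed, against 10.15, 10.78 and 11.49 in intact skin. The spots had a median of 663, 722 and 494 scanner units in the bed, near their local background of 691, 744 and 470, and of 1127, 1137 and 3554 in intact skin. No bed array was above the blanks, and all 3 intact arrays were. The bed signal was lower by at least 2.12-fold (log2 difference -3.57, SE 0.36, limma adjusted p = 1.92e-06).

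M200001308 showed the same pattern. It had log2 signals of 7.56, 7.98 and 7.83 in the bed, against 10.60, 10.18 and 11.12 in intact skin. The bed arrays lay below the blanks' threshold and did not overlap with the intact arrays, all of which lay above it. The bed signal was lower by at least 1.88-fold (log2 difference -2.84, SE 0.32, limma adjusted p = 6.77e-06). These 4 probes kept their call in all 24 tested settings, with the block correction and the scan day block among them. They had been picked on these same arrays, for the largest test statistics among called probes whose groups did not overlap. That choice favours both the lack of overlap and a lasting call, so nothing is read from either. Without bed replicate 2 the log2 differences of M200000353, M200000905, M200001432 and M200001308 were 5.74, 2.38, -3.41 and -2.94, and after the block correction they were 5.22, 2.54, -2.95 and -2.59. Their printed positions were in block rows 7 to 10, where bed replicate 2 read between 0.45 and 0.08 below the mean of the groups.

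Heparanase did not pass the threshold. The Hpse probe had log2 signals of 11.49, 10.97 and 11.06 in the bed, against 9.95, 11.02 and 10.13 in intact skin, and it was above the blanks on all 6 arrays. The median of its spots was 2938, 1647 and 2787 scanner units in the bed and 1030, 1221 and 1510 in intact skin. The groups overlapped on the normalized scale, since intact replicate 2 lay above bed replicate 2. The log2 difference was 0.80 (SE 0.32, limma adjusted p = 0.0858), which placed Hpse 122nd among the rises by test statistic.

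Hpse lies in block row 5, where bed replicate 2 read 0.37 below the mean of the groups. After the block correction its log2 signals were 11.36, 11.52 and 11.22 in the bed, against 9.95, 11.11 and 10.30 in intact skin, and the groups no longer overlapped. The log2 difference was then 0.91 (SE 0.27, limma adjusted p = 0.0163). Without bed replicate 2 alone it was 0.90 and did not pass (SE 0.35, adjusted p = 0.0998). It passed in 5 of 25 tested settings: after that correction, with array quality weights (0.89, adjusted p = 0.0456), without both uneven arrays (0.90, adjusted p = 0.0408), without intact replicate 2 (1.13, adjusted p = 0.0272) and without the 3 dimmest arrays (1.13, adjusted p = 0.0287). These settings are not separate, as intact replicate 2 is among the 3 dimmest arrays. Leaving out both uneven arrays also leaves the same bed and intact arrays as leaving out bed replicate 2. With only the 6 compared arrays in the fit, Hpse did not pass (0.80, SE 0.42, limma adjusted p = 0.247). Scan day as a block gave 0.64 (adjusted p = 0.356), the block correction and scan day together 0.65 (adjusted p = 0.135), and the median scale 0.39 (adjusted p = 0.446). The difference was above 0 in each of these settings.

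Fibulin-1 could not be told apart between the groups. The Fbln1 probe had log2 signals of 10.57, 8.91 and 11.35 in the bed, against 10.01, 9.77 and 10.58 in intact skin, and it was above the blanks on 2 of 3 arrays in each group. The bed mean of 10.28 ± 1.25 enclosed the intact mean of 10.12 ± 0.42 (SD, n = 3 each). The log2 difference was 0.16 (SE 0.51, limma adjusted p = 0.834), without bed replicate 2 it was 0.84 (adjusted p = 0.247), and after the block correction it was 0.09 (adjusted p = 0.872). The Ndst3 probe was not above the blanks on any of the 21 arrays and was not tested.

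**Figure D4:**
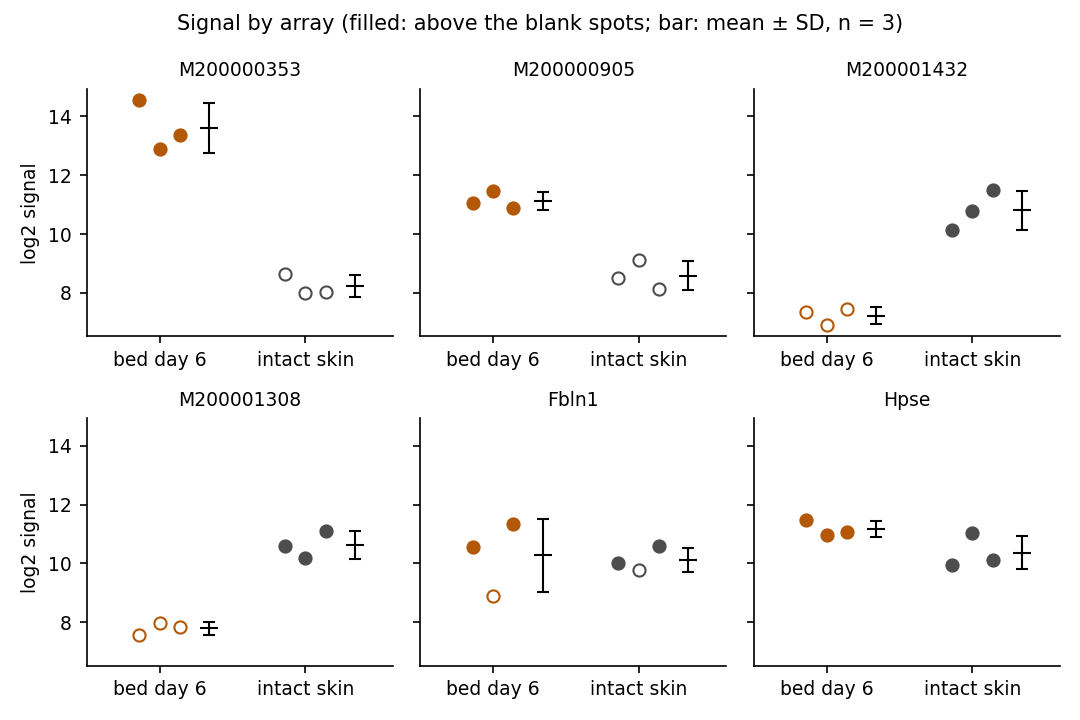
Log2 signal (vertical axis) on each array of wound bed day 6 (left, replicates 1 to 3 from left to right) and intact skin (right) for 6 probes, with filled points above the blank spots, open points not above them, and bars for the mean ± SD of 3 arrays. The 4 catalogue probes were picked among those without overlap between the groups, whereas Hpse and Fbln1 overlap.

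Some probes were above the blanks in 1 of the 2 tissues only. A total of 7 tested probes were above the blanks on all 3 bed arrays and on no intact array (0.719% of 974), and all 7 were called higher. In the opposite direction, 20 probes were above the blanks on all 3 intact arrays and on no bed array (2.05%), and 15 of them were called lower. With bed replicate 2 left out, the counts of 7 and 20 became 12 and 25. Over all tested probes 9.34% were called higher and 9.96% lower. The calls were made on these same 6 arrays, which favours calls among such probes, so nothing is read from their calls. Among the 91 rises, 39 were above the blanks on all 6 arrays and 29 on no intact array. For 24 of these 29 the rise had a lower bound above 1, with a median of 1.63-fold. Among the 97 falls, 20 were above the blanks on all 6 arrays and 36 on no bed array, with a bound for 21 of them and a median of 1.66-fold. Fewer tested probes were above the blanks on all 3 bed arrays (395) than on all 3 intact arrays (522).

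Before normalization, signal over local background had a median of 3.76, 3.26 and 5.61 over the 91 rises in the bed, against 2.16, 1.38 and 2.07 in intact skin. Over the 97 falls it was 1.85, 1.36 and 2.38 in the bed, against 6.36, 2.51 and 4.41 in intact skin. This ratio did not overlap between the groups in 223 of the 974 tested probes (22.9%), in either direction, and in 117 of the 188 in the direction of the call. The calls were made on these same arrays, so nothing is read from that count. On the normalized scale the groups were free of overlap in 176 of the 188, and in 321 of all 974 tested probes (33.0%). Dim and bright probes were called alike in share, with 17.6%, 18.9%, 21.8% and 18.9% called in 4 equal classes of probes ordered by rising mean signal.

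The bed arrays varied more among themselves than the intact arrays. The median SD over the tested probes was 0.60 in the bed and 0.38 in intact skin, and the bed had the larger SD in 691 of 974 probes. Across the tested probes, which are not independent, bed replicates 1 and 3 correlated with r of 0.903, and replicate 2 correlated with them at 0.801 and 0.774. The intact arrays correlated with each other at 0.925 to 0.930. In 129 probes (13.2%) the 3 bed arrays spanned more than 2 on the log2 scale, and in 97 of these replicate 2 lay apart from the other two; in intact skin 17 probes (1.75%) spanned as much. After the block correction the median SD was 0.42 in the bed and 0.34 in intact skin, and r within the bed was 0.853 to 0.928.

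The position of a probe on the array moved with its direction. Among block rows 1 to 4, 35 probes were called higher and 16 lower, and among rows 9 to 12, 23 higher and 42 lower, with a median log2 difference of all tested probes of 0.22 and -0.44. Without bed replicate 2 rows 1 to 4 had 20 higher and 13 lower and rows 9 to 12 had 22 and 26, with medians of 0.03 and -0.19. After the block correction these counts were 35 and 43 in rows 1 to 4 and 40 and 49 in rows 9 to 12, with medians of -0.05 and -0.07. That correction removes the row medians from each array, so medians near 0 follow from it and nothing is read from them.

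The levels of the 188 probes were also read in the other groups. The probes were chosen on the day 6 bed and intact arrays, which favours an extreme rank of the day 6 bed among the groups. As the same intact arrays are the reference, it also favours other groups on the same side of intact skin. The values below are therefore a description and were not tested. Relative to the intact mean, the 91 rises had a median log2 difference of 0.90, 1.52 and 1.10 in the bed at days 2, 6 and 15, and of 0.41, 0.51 and 0.17 in the edge. The day 6 bed had the highest mean of the 7 groups in 65 of the 91 (59 without bed replicate 2, 62 after the block correction), and in 203 of all 974 tested probes (20.8%). In 82 of the 91 the bed at day 2 also lay above intact skin, and in 89 the bed at day 15 did. The edge did so in 73, 75 and 58 at days 2, 6 and 15. The 97 falls had medians of -0.86, -1.58 and -1.24 in the bed at days 2, 6 and 15, and of -0.47, -0.28 and -0.27 in the edge. The day 6 bed had the lowest mean in 57 of the 97 (53 without bed replicate 2, 55 after the block correction), and in 227 of all 974 (23.3%). In 87 of the falls the bed at day 2 also lay below intact skin, and in 95 the bed at day 15 did. The edge lay below it in 79, 74 and 61 at days 2, 6 and 15.

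**Figure D5:**
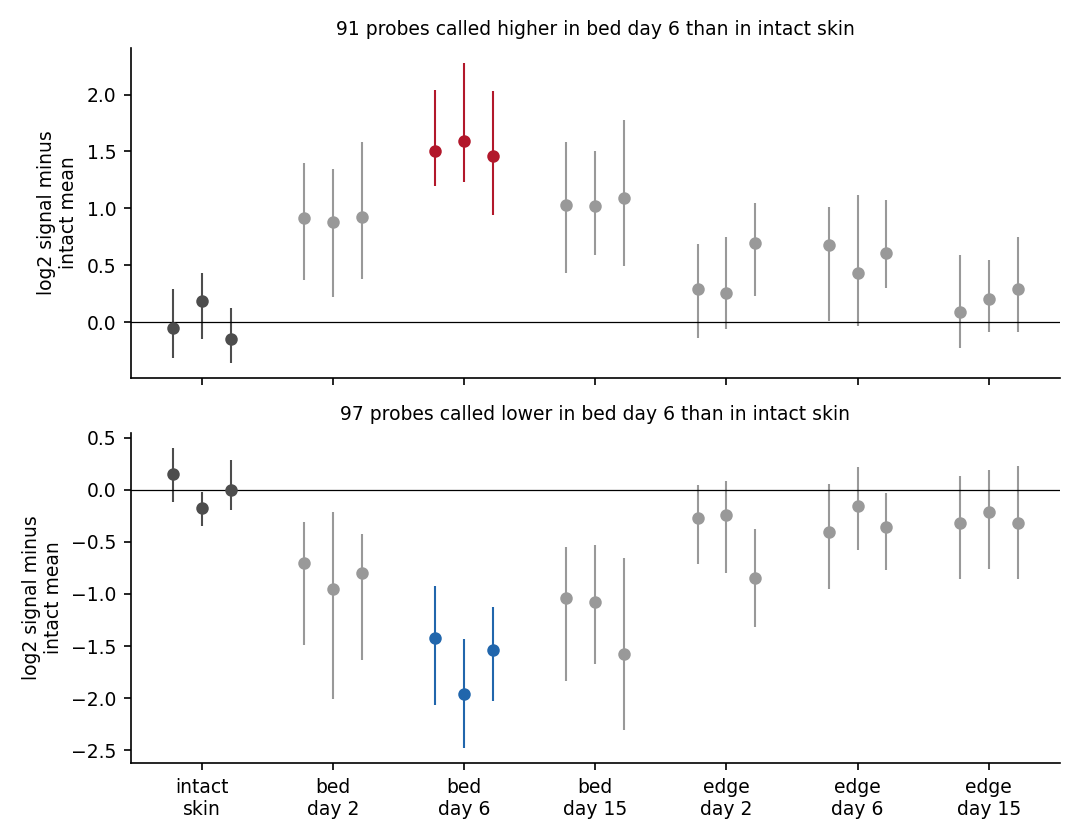
Log2 signal minus the intact mean (vertical axis) on each of the 21 arrays for the 91 probes called higher (top) and the 97 called lower (bottom) in wound bed day 6, with points for the median over the probes and lines for the range from the 25th to the 75th percentile. The 3 bed day 6 arrays read 1.50, 1.59 and 1.46 at the top and -1.43, -1.96 and -1.54 at the bottom.

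Direct comparisons of the day 6 bed with the other stages share the day 6 bed arrays and each probe's pooled spread with the comparison above. A probe with an extreme day 6 bed mean or a small spread is thus favoured in each of them. Nothing is read from the counts of probes called in 2 comparisons. Against the bed at day 2, 239 probes passed at an unadjusted p below 0.05 (24.5%) and 63 were called (6.47%), 25 of them higher at day 6 (2.57%) and 38 lower (3.90%). The 25 had a median of 1.61 relative to intact skin at day 6 and of -0.38 at day 2, and the 38 had medians of -0.91 at day 6 and 0.61 at day 2. Of the 91 rises against intact skin 17 were also higher than in the day 2 bed, and of the 97 falls 15 were also lower. The split depended on the scale, with 28 higher and 24 lower when arrays were scaled to their 75th percentile, 29 and 20 when that percentile came from the probes above the blanks everywhere, and 17 and 55 when they were scaled to their median. After the block correction the count was 132 (57 higher, 75 lower). Without bed day 6 replicate 1, 2 or 3 it was 31, 33 and 99, and without bed day 2 replicate 1 or 2 it was 34 and 38.

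Against the bed at day 15, 7 probes were called (0.719%), 4 of them higher at day 6 (0.411%) and 3 lower (0.308%), and 114 passed at an unadjusted p below 0.05 (11.7%). With the same day 6 bed arrays in both comparisons, 3 of the rises against intact skin were also higher than at day 15. Of the falls 1 was also lower. M200000905 was one of the 3, with a bed mean of 11.12 ± 0.30 at day 6 against 9.65 ± 0.42 at day 15 (SD, n = 3 each; log2 difference 1.48, SE 0.33, limma adjusted p = 0.0395). Without bed day 15 replicate 1 the count was 26, and without bed day 6 replicate 3 it was 12. The split was 1 higher and 2 lower when the 75th percentile of those same probes was the scale, 1 and 4 with the median, and 2 and 3 with the deposited table.

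Against the edge of the same day, 159 probes were called (16.3%), 78 of them higher in the bed (8.01%) and 81 lower (8.32%), and 316 passed at an unadjusted p below 0.05 (32.4%). The 78 had a median of 1.27 relative to intact skin in the bed and of -0.33 in the edge, and the 81 had medians of -1.41 in the bed and 0.14 in the edge. Of the 91 rises against intact skin 40 were also higher than in the edge, and of the 97 falls 56 were also lower. Both calls used the same bed arrays, which favours such an overlap, so nothing is read from it. No edge array was scanned on scan day 3, and scan day as a block left 18 probes called, 2 higher and 16 lower in the bed. Scaling to the 75th percentile gave 82 higher and 52 lower. The split was 87 and 43 with that percentile over probes above the blanks everywhere, 22 and 101 with the median, and 43 and 74 with the deposited table. Without bed day 6 replicate 2 the count was 65, without edge replicate 1, 2 or 3 it was 76, 52 and 99, and after the block correction it was 202.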

How the data were processed

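RNA was amplified from 500 ng and labelled with Cy3, per the labels' protocols, and each array had 1 colour. The authors deposited scanner files in which each spot has a mean signal and a background as a linear intensity, quantified with image software of version 4.1 per the file headers. These deposited files also hold another value, a flag from 0 to 3 with no stated meaning in the sources used here. A further deposited table gives the authors' score per probe on a scaled log axis, which correlated with the log2 mean signal of the same array at r = 1.00. Its columns had medians of 1.00 and an SD of 0.20, and its higher values stand for more signal, so scale, centring and direction are known.

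From the intensities, normexp background correction (offset 50), each probe's mean log2 over its spots other than those of flag 1, and quantile normalization were computed with limma 3.58.1 in R 4.3.3. Quantile normalization would hide a change that most transcripts share. The model had 1 mean for each of the 7 groups over 21 arrays (14 residual degrees of freedom), with empirical Bayes moderation and two-sided p-values with Benjamini-Hochberg adjustment within each of 4 comparisons. It was tested on simulated data with the same spread in every group, which the groups here did not have. Each array held 13824 spots, with 8 for each probe and 328 blank or empty. Slide could not be a block, as the 21 arrays were on 21 slides.

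The members, gene lists and comparisons were chosen with earlier results of these data known. The rule for named probes took the 2 rises and 2 falls with the largest moderated statistic among called probes without a symbol whose groups did not overlap and which were above the blanks on all arrays of the brighter group, and every probe with a symbol, matched by accession to a RefSeq gene table (GRCm38.p6). The gene lists could not be tested, since 3 probes matched. The alternatives were other scales, background corrections, filters, spot summaries, samples, spreads and blocks, and the deposited table. The labels do not say whether replicate numbers pair the samples, and the main fit treated them as unpaired. Deviations of bed and intact arrays of the same number correlated at -0.07, 0.28 and 0.28. Those of unlike numbers correlated at -0.33 to 0.10, and these values cannot settle whether animals were shared. Replicates were no repeated deposits, as the arrays of a group had between 2 and 29 identical spot values of 13824.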

Additional observations from a re-analysis of the deposited data

Results flagged for a closer look

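For the probes described by name, the day 6 bed was also set against the other stages, and 6 differences passed limma's test at an adjusted p below 0.05. The rest did not pass. M200000353 had a log2 difference of 3.83 in the bed, day 6 minus day 2 (SE 0.48, adjusted p = 6.7e-05), with means of 13.61 ± 0.85 at day 6 and 9.77 ± 0.48 at day 2 (SD, n = 3 each). Its differences from the day 15 bed (mean 12.65 ± 1.25, limma adjusted p = 0.463) and the day 6 edge (12.36 ± 0.13, adjusted p = 0.0807) did not pass. It was above the blanks on every bed and edge array. M200000905 was higher in the bed at day 6 than at day 15 by 1.48 (SE 0.33, adjusted p = 0.0395), and than in the edge of day 6 by 2.06 (SE 0.33, adjusted p = 0.000547), where it averaged 9.07 ± 0.18 and was above the blanks on 1 of 3 arrays. M200001432 was lower in the day 6 bed than in its edge, with a difference of -2.64 (SE 0.36, adjusted p = 0.000116) and means of 7.23 ± 0.29 in the bed and 9.87 ± 0.35 in the edge. M200001308 was lower there too, with a difference of -2.14 (SE 0.32, adjusted p = 0.0003) and means of 7.79 ± 0.22 in the bed and 9.93 ± 0.18 in the edge. Neither M200001432 nor M200001308 was above the blanks on any bed array of day 2 or 15. Hpse exceeded its level in the day 6 edge by 1.0 in the bed (SE 0.32, adjusted p = 0.0427), with means of 11.17 ± 0.27 in the bed and 10.17 ± 0.10 in the edge. Day 6 bed and edge arrays share only scan day 2. With scan day as a block, 18 probes were called between them (2 higher, 16 lower in the bed), against 159 without it. Other settings for the probes described by name were given against intact skin only. The sizes for M200001432 and M200001308 include bed signals that were not above the blanks, and those for M200000905 include such signals in the edge and on 1 of 3 bed arrays of day 15. No group has 4 arrays, so single arrays were not tested as outliers.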

How the results depend on the processing

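The count of 188 probes called between the day 6 bed and intact skin was 125 with the 75th percentile over probes detected on all arrays, 47 with only such probes (32 higher, 15 lower), 85 when the other groups were left out of the fit and 77 with scan day as a block. Leaving out 1 array gave 98 to 211, and the other settings gave 144 to 271. With replicate number as a replicate block the count was 171, and the labels do not say whether the numbers pair the samples. Against the bed at day 2 (63), it was 18 with only probes detected on all arrays, 14 with only the groups compared, 124 with array weights, 132 with the block correction, 156 with that and scan day, and 31 to 99 without 1 array. Against the bed at day 15 (7), it was 3 with the 75th percentile over probes detected on all arrays, 1 with only such probes, 1 with only the groups compared, 3 with the replicate block, 2 with array weights, 12 with the block correction, 3 without the 2 uneven arrays, 17 with the correction and scan day, and 5 to 26 without 1 array. Against the edge of day 6 (159), it was 104 with plain background subtraction, 43 with only probes detected on all arrays, 44 with only the groups compared, 18 with scan day as a block, 87 without the 2 uneven arrays, 27 with the correction and scan day, and 52 to 163 without 1 array. The Fbln1 difference turned to -0.0168 with the median scale and to -0.0196 without the 3 dimmest arrays, and it ran from -0.38 to 0.84 when 1 array was left out, below 0 without bed replicate 3 and without intact replicate 2 (-0.0196). The cause was not tested. The block correction and the fit without both uneven arrays were chosen after the data were seen. The fit on spots of flag 0 was not run, as 8 of 974 probes had such a spot on all arrays. Low signal over background limits the dim probes, whose sizes are given as bounds.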

Other observations

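Probes with a public sequence identifier were called about as often as those of the catalogue: of 43 tested, 6 were higher and 3 lower in the bed at day 6 (20.9%), and of 931 catalogue probes 85 were higher and 94 lower (19.2%). The day 6 bed had the largest median SD of the 7 groups, at 0.60, and the bed at day 15 followed with 0.53, while the remaining 5 groups had 0.27 to 0.39. These were also the 2 groups with an uneven array, and in the fit with array quality weights bed day 6 replicate 2 had a weight of 0.18.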
